A study of Mus musculus with 15 samples.

Results

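H19 and 8 other imprinted growth genes (Igf2, Meg3, Peg3, Plagl1, Mest, Cdkn1c, Grb10 and Ndn) were followed through injury of the adult mouse optic nerve. They were chosen by name and by being present among the measured genes, and taken from the table of 14237 genes, in which 9 of 9 were present and 9 of 9 passed the filter on low counts. That choice was made with earlier results of these data known, so the number of members that changed is a description and supports nothing. Optic nerves from C57BL/6J mice (age given as adult) gave 15 libraries in 3 groups of 5 biological replicates, numbered 2 to 6. Every eye had received an adeno-associated virus of serotype 2 (AAV2) into the vitreous. The sham group received AAV-Null and its nerve was exposed without being crushed. The crush AAV-null group received the same virus and a crush of the nerve, and the crush AAV-CNTF group received AAV2 for a secretable form of ciliary neurotrophic factor (CNTF) before the crush. In the crush groups the injury followed the injection by 2 weeks and the nerve was collected 7 days after the crush, while no times are stated for the sham group. The promoter that drives CNTF was not given in the sources used here, and no group received a sham injury with AAV-CNTF.

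An imprinted gene is expressed mainly or wholly from the copy inherited from 1 parent, and the choice is set by DNA methylation laid down in the germ line. Many imprinted genes act on fetal growth: in mice the paternally expressed genes among them tend to promote growth and the maternally expressed ones to restrain it, and most of them fall to low levels in adult tissues. H19 (a maternally expressed long noncoding RNA) and Igf2 (insulin-like growth factor 2, paternally expressed) are neighbours that share enhancers and are switched by a methylated control region between them. In the brain and its coverings, Igf2 is known to be made mainly by the meninges and choroid plexus. These libraries do not tell the parental alleles apart, so all values below are the sum of both.

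In mm10 (GENCODE M21), H19 lies on chromosome 7 from 142575529 to 142578143 and Igf2 from 142650766 to 142666816, both on the minus strand and 72.6 kb apart. Cdkn1c (143458339 to 143461050, minus strand), Peg3 (6703892 to 6730431, minus strand) and Ndn (62346569 to 62350262, plus strand) lie on the same chromosome. Meg3 is on chromosome 12 from 109541001 to 109571726, plus strand. Plagl1 is on chromosome 10 from 13060504 to 13131694, plus strand. Mest is on chromosome 6 from 30723547 to 30748465, plus strand, and Grb10 on chromosome 11 from 11930508 to 12038683, minus strand. H19 and Meg3 are annotated as long intergenic noncoding RNAs. Annotated genes on the opposite strand overlap exons of H19, Igf2, Meg3, Plagl1, Mest and Cdkn1c (for H19 and Plagl1, genes annotated as miscellaneous RNA), and whether counting used strand was not given in the sources used here, so reads of these members and of their antisense partners cannot be told apart. On the same strand, the protein-coding gene Gm49394 overlaps exons of Igf2, and small RNA genes overlap exons of H19 and Meg3. Strand would not separate reads of these.

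An exon of H19 holds the hairpin mmu-mir-675, for which H19 is the precursor (RefSeq, GRCm38.p6, chr7:142577064-142577147, minus strand). The sequences are shown because they are the part of H19 with a known product: capitals mark the mature arms in the hairpin, and the seed (bases 2 to 8) in each mature form. The microRNA itself was not analysed here.
mmu-mir-675 hairpin: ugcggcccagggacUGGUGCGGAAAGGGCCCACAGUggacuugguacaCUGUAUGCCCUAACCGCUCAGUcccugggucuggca
mmu-miR-675-5p: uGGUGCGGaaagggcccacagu
mmu-miR-675-3p: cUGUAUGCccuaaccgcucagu

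Promoter windows of 250 bases before an annotated start were found in RefSeq for 7 of 9 members, 14 windows in all; H19 and Cdkn1c had no entry in the promoter table. The window with the most CpG pairs (in capitals) is shown for each of Grb10, Igf2 and Meg3, members that were higher in a crush group than in sham. CpG pairs are the usual sites of DNA methylation. These are promoter windows and were not chosen as imprint control regions, which can lie elsewhere. Whether any of them overlaps such a region was not looked up. The Grb10 window chr11:12037421-12037670 (minus strand) holds 40 CpG pairs at 81.2% GC, and 1.09% of the 32851 windows of all genes hold more. The Igf2 window chr7:142658805-142659054 (minus strand) holds 22 and the Meg3 window chr12:109540746-109540995 (plus strand) holds 10, against a median of 6 over all windows, which were not chosen in this way. The windows not shown hold 8 (Grb10), 6, 10 and 1 (Igf2) and 0 (Meg3). Methylation was not measured in these libraries.
Grb10: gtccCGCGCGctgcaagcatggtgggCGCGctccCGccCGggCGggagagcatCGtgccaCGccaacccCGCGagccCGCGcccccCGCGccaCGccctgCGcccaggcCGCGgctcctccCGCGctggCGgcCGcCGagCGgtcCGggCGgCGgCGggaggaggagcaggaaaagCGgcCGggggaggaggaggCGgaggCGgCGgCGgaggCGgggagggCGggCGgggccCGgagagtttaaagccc
Igf2: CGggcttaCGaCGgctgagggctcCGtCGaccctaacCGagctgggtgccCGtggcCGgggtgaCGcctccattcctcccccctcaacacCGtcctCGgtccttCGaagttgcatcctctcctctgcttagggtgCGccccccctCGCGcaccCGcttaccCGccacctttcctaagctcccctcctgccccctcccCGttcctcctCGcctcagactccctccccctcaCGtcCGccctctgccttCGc
Meg3: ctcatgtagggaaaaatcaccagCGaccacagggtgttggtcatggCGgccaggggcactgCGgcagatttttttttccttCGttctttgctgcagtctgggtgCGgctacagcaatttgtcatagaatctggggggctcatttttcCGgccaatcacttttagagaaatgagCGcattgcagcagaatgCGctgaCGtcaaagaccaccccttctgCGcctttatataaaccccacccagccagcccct
Short letter patterns were searched in these windows on both strands. The core of the motif named for PLAGL1, GGGGCCCC, was found in 1 of the 14 windows, of Peg3, and in 0.889% of all 32851 windows. The STAT pattern TTCNNNGAA was in 0 of 14 (7.02% of all windows) and the AP-1 pattern TGANTCA in 0 of 14 (6.75% of all windows).

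The libraries held between 19856688 and 29558293 expected counts each. Genes that define the tissue were present in every sham library: 8 mature oligodendrocyte genes summed to between 50610 and 64230 CPM (counts scaled to a common library total) and 8 astrocyte genes to between 7704 and 8497 CPM. Crush AAV-null replicate 6 stood apart in having 3.18% of genes at 0, against 0.98% to 2.32% in the other libraries. After crush with AAV-null, oligodendrocyte genes were lower than in sham (8 of 8) and genes of dividing cells (8 of 8) and phagocytes (8 of 8) higher. Over all tested genes, 14.7% were higher and 12.9% lower. Up to 5 of the 8 genes of dividing cells had a rounded count of 0 in a sham library. Some may be among the measured genes only through crushed nerves, so their 8 of 8 is only a description. In whole nerve, fewer cells of a type and less RNA per cell cannot be told apart.

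Levels were compared between genes only as FPKM, which scales fragments by transcript length and library total. In sham nerves Igf2 was the highest member, at 125 ± 44.2 FPKM (SD, n = 5), and its 5 libraries did not overlap with those of Cdkn1c, the next at 17.3 FPKM. Peg3 (13.3), Plagl1 (12.2), Meg3 (12), H19 (11.5), Ndn (8.87), Mest (8.30) and Grb10 (5.75) followed in mean FPKM, and each overlapped with its neighbour in that order. In the crush AAV-null group H19 was second to Igf2, at 117 ± 57.7 FPKM against 255 ± 110.1 FPKM (SD, n = 5), and stood clear of Meg3, next in order at 23.8 FPKM. The crush AAV-CNTF group had the same leaders, with Igf2 at 406 ± 226 FPKM, H19 at 182 ± 110.2 FPKM (SD, n = 5) and Grb10 after them at 32 FPKM. Ndn was the lowest of the 9 in both crush groups, at 5.84 and 7.24 FPKM.

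**Figure D1:**
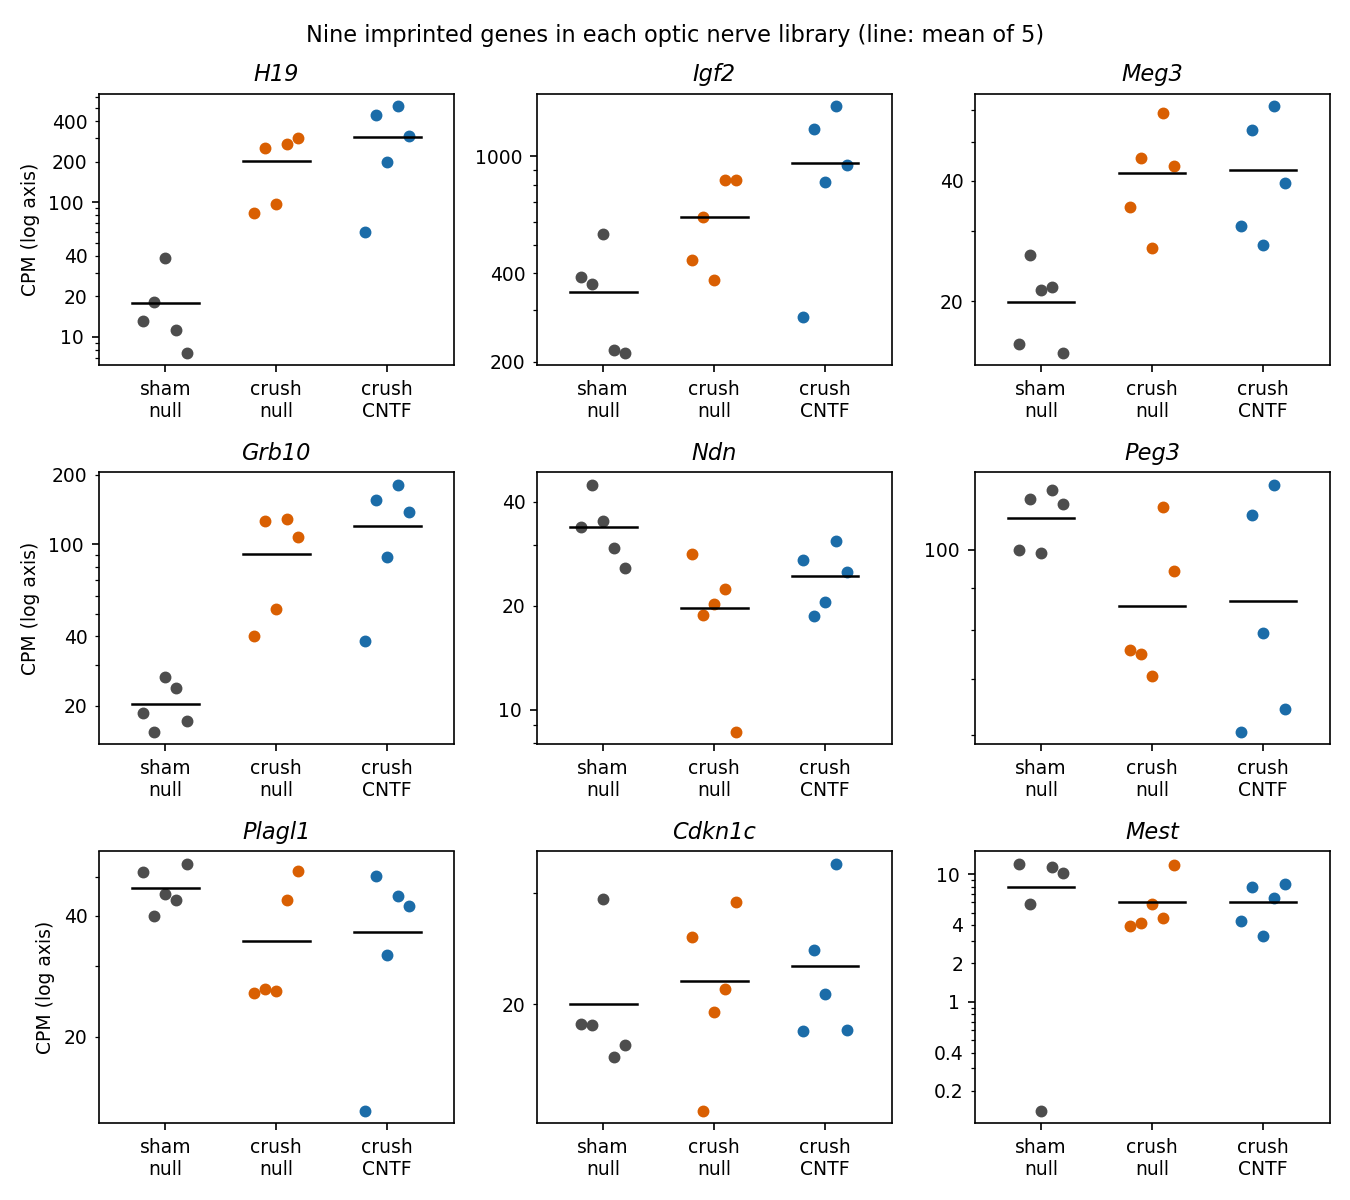
Level of each of the 9 imprinted genes in each library, in CPM on a log axis; each point is 1 library, the 3 groups are set apart along the x axis and the horizontal line is the mean of 5. H19 and Grb10 lie higher in every crush library than in every sham library, and Mest is near 0 in sham replicate 4 (0.140 CPM).

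Crush was compared with sham, both with AAV-null, to see which of these genes differ after injury. Of the 9 members, 3 were higher (H19, Grb10 and Meg3), 1 was lower (Ndn) and 5 passed in neither direction; of all 14194 genes tested, 27.6% passed (14.7% higher and 12.9% lower), and nothing is read from the members' share. A change is called where edgeR's quasi-likelihood test gives a Benjamini-Hochberg adjusted p under 0.05 over all tested genes. The median log2 fold change was 0.12 over the members and 0.0048 over all genes tested.

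H19, the noncoding RNA, had the largest change of the members. Its level was 13, 18.1, 38.4, 11.3 and 7.61 CPM in sham replicates 2 to 6. It was 82.6, 252, 97.7, 272 and 301 CPM in crush AAV-null replicates 2 to 6. All 5 crush libraries lay above all 5 sham libraries, as did those of 10.5% of all genes tested, and replicates 2 and 4 were the lowest of the crush group. The mean went from 17.7 ± 12.2 to 201 ± 103 CPM (SD, n = 5 each), a log2 fold change of 3.51 ± 0.52 (SE; 95% interval 2.43 to 4.59), or 11.4-fold (edgeR adjusted p = 2.68e-05). The authors' deposited table gives a log2 fold change of 3.51 for H19 in this comparison, with an adjusted p of 6.08e-09.

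Igf2, the growth factor encoded next to H19, had a smaller fold change. Sham replicates 2 to 6 had 387, 369, 543, 219 and 215 CPM. Crush AAV-null replicates 2 to 6 had 443, 623, 380.3, 828 and 834 CPM. The groups overlapped, since crush replicate 4 lay below sham replicates 2 and 4. The means were 346 ± 136 and 622 ± 211 CPM (SD, n = 5 each) and the log2 fold change of 0.84 ± 0.33 (SE) did not pass (edgeR adjusted p = 0.0622). Igf2 passed without sham replicate 4 (log2 1.06, edgeR adjusted p = 0.0237), without crush AAV-null replicate 4 (0.98, adjusted p = 0.0388), without crush AAV-CNTF replicate 2 (adjusted p = 0.0155) and with only the 10 libraries compared (adjusted p = 0.0173).

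The ratio of H19 to Igf2 in FPKM was set out library by library. It was 0.0588, 0.103, 0.125, 0.113 and 0.0477 in sham replicates 2 to 6. It was 0.360, 0.472, 0.449, 0.447 and 0.496 in crush AAV-null, and 0.282, 0.475, 0.448, 0.448 and 0.459 in crush AAV-CNTF. Every crush library was above every sham library. The group means were 0.0895 ± 0.0342, 0.445 ± 0.0514 and 0.422 ± 0.0793 (SD, n = 5 each), and the group difference in the ratio was given no test. FPKM divide counts by a transcript length. The length that counts and FPKM imply together ran over 1.93-fold for H19 and 1.78-fold for Igf2 between libraries, and it enters these ratios and their spread.

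**Figure D2:**
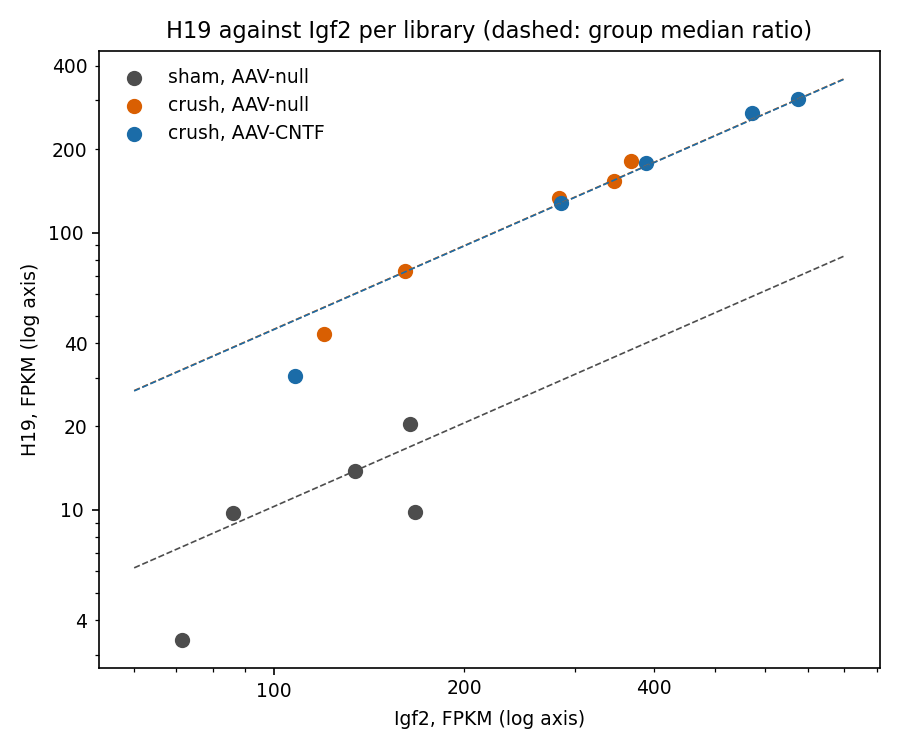
H19 against Igf2, both in FPKM on log axes, each point 1 library coloured by group; each dashed line marks 1 group's median ratio of H19 to Igf2, and the lines of the crush groups lie on each other. Crush libraries (ratios of 0.282 to 0.496) all have higher ratios than the sham libraries (0.0477 to 0.125).

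Grb10 encodes an adaptor that binds activated insulin and insulin-like growth factor receptors and restrains their signal. Its level was 18.5, 15.4, 26.7, 23.8 and 17.2 CPM in sham replicates 2 to 6. Crush AAV-null replicates 2 to 6 had 39.9, 126, 52.7, 129 and 107 CPM. All crush libraries lay above all sham libraries, and as for H19 the lowest were replicates 2 and 4. The log2 fold change was 2.16 ± 0.35 (SE), or 4.48-fold, from 20.3 ± 4.75 to 91.0 ± 41.8 CPM (SD, n = 5 each; edgeR adjusted p = 7.94e-05). H19 and Grb10 kept this call in 26 of 26 alternatives, with log2 fold changes of 2.68 to 4.01 and 1.65 to 2.35.

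Meg3, the maternally expressed noncoding RNA of the Dlk1-Meg3 cluster, had 15.6, 26.0, 21.4, 21.7 and 14.9 CPM in sham replicates 2 to 6. In crush AAV-null it had 34.3, 45.6, 27.1, 58.9 and 43.5 CPM. The groups did not overlap, though crush replicate 4 and sham replicate 3 were close. The log2 fold change was 1.07 ± 0.24 (SE), or 2.10-fold (edgeR adjusted p = 0.00147). On log2(FPKM + 0.1), limma gave 0.93 with an adjusted p of 0.139, which ends the call.

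Ndn encodes necdin, a growth suppressor of postmitotic neurons, and was the member that fell. It had 33.8, 44.7, 35.2, 29.3 and 25.6 CPM in sham replicates 2 to 6. In crush AAV-null it had 28.1, 18.8, 20.2, 22.4 and 8.63 CPM. The groups overlapped in crush replicate 2, which was above sham replicate 6. The log2 fold change was -0.78 ± 0.24 (SE; 95% interval -1.28 to -0.29; edgeR adjusted p = 0.0169). The call was lost without sham replicate 3 (log2 -0.66, adjusted p = 0.0529) and with limma on log2(FPKM + 0.1) (-0.67, adjusted p = 0.0936).

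Peg3, Plagl1, Cdkn1c and Mest passed in neither direction. Peg3, a zinc finger protein with roles in growth and maternal behaviour, had 109 ± 8.89 CPM in sham and 85.6 ± 17.6 in crush AAV-null (SD, n = 5 each; log2 -0.35 ± 0.17 SE, edgeR adjusted p = 0.141). Plagl1, a zinc finger transcription factor known to regulate other imprinted genes, had 46.8 ± 5.63 and 34.6 ± 12.2 CPM (log2 -0.43, adjusted p = 0.253). Cdkn1c, the cyclin-dependent kinase inhibitor p57, had 20.0 ± 5.26 and 21.8 ± 5.93 CPM (log2 0.12 ± 0.22 SE, adjusted p = 0.752). Mest, which encodes a hydrolase-like protein of the endoplasmic reticulum, had 7.90 ± 4.96 and 6.04 ± 3.29 CPM (log2 -0.38 ± 0.60 SE, adjusted p = 0.696). The wide error of Mest goes with sham replicate 4, which held 2.8 expected counts of it (0.140 CPM), against 5.81 to 12.1 CPM in the other sham libraries.

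The effective length that a gene's counts and FPKM imply together was also least steady for Mest: it ran from 0.223 to 2.35 kb over the libraries, a 10.6-fold range, against a median range of 1.55-fold over all genes. It ran over 2.63-fold for Meg3 and 1.93-fold for H19 and was near constant for Ndn (1.02-fold).

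**Figure D3:**
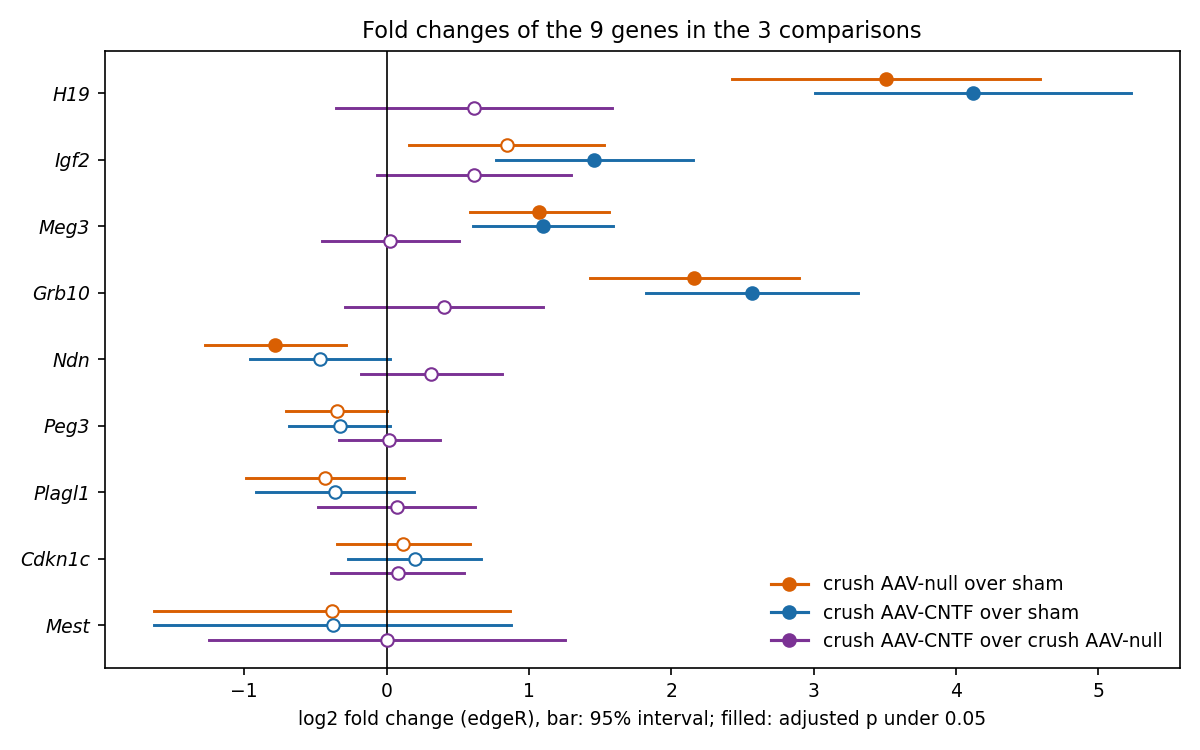
Log2 fold change of each member in the 3 comparisons with its 95% interval; filled points passed edgeR's adjusted p under 0.05. H19, Grb10 and Meg3 lie above 0 in both comparisons with sham, and every interval of AAV-CNTF against AAV-null spans 0.

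AAV-CNTF was compared with AAV-null in crushed nerves to ask what the cytokine adds after injury. Of the 9 members 0 passed, with 0 also at an unadjusted p under 0.05 and 0 by DESeq2. Of all genes tested, 0.0564% (8) passed by edgeR and 7.69% had an unadjusted p under 0.05. The H19 levels in crush AAV-CNTF replicates 2 to 6 were 59.9, 445, 200.1, 519 and 312 CPM. These ran from below to above the whole crush AAV-null group. The log2 difference was 0.61 ± 0.47 (SE), with a 95% interval of -0.36 to 1.58 (edgeR adjusted p = 0.861).

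Igf2 was at 285, 1238, 821, 1486 and 932 CPM in crush AAV-CNTF replicates 2 to 6. Replicate 2 was below every crush AAV-null library, and replicates 3, 5 and 6 above every one. The difference was 0.62 ± 0.33 (SE; edgeR adjusted p = 0.704). Grb10, at 38.1, 156, 88.4, 181 and 138 CPM, differed by 0.40 ± 0.34 (SE; adjusted p = 0.886). Meg3 differed by 0.02 (adjusted p = 0.988) and Ndn by 0.32 (adjusted p = 0.861). These p values do not show that the 2 crush groups were alike.

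Crush with AAV-CNTF was also compared with sham, which differs in both injury and virus and shares its sham libraries with the first comparison. Here 4 members were higher (H19, Igf2, Meg3 and Grb10) and 0 lower, where 31.3% of all tested genes passed (17% higher and 14.3% lower). The mean of H19 was 307 ± 185 CPM (SD, n = 5), with a log2 fold change of 4.12 ± 0.53 (SE), or 17.4-fold, above sham (edgeR adjusted p = 4.51e-06), and its libraries lay above every sham library, as did those of 11.9% of all genes. Igf2 passed, at log2 1.46 ± 0.33 (SE; 2.75-fold, adjusted p = 0.00186), though its replicate 2 lay within the sham range. Grb10 was higher by log2 2.57 ± 0.36 (SE; adjusted p = 1.1e-05) and Meg3 by 1.10 ± 0.24 (SE; adjusted p = 0.00106). The Meg3 call was lost with limma on log2(FPKM + 0.1) (log2 1.11, adjusted p = 0.0704). Ndn did not pass, at log2 -0.47 ± 0.24 (SE; adjusted p = 0.146). Peg3, at -0.33 (adjusted p = 0.156), passed without crush AAV-CNTF replicate 5 (-0.47, adjusted p = 0.0371).

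H19 and Igf2 also varied together within groups. After each group's mean was removed from the log2 CPM values, the correlation of H19 with Igf2 over 15 libraries was 0.954 (Spearman 0.936), and 0.932 without the libraries farthest from the median, crush AAV-CNTF replicate 2 and crush AAV-null replicate 2. Among 13955 genes Igf2 ranked second by this likeness, and Grb10 (r 0.891) ranked 33. Meg3 (0.745), Plagl1 (0.724), Peg3 (0.572) and Cdkn1c (0.471) were lower, and Ndn (-0.177) and Mest (-0.272) lay below 0. Over the 36 pairs of members the median was 0.45, and 12 pairs were below 0. All these points share libraries and depth, and no p is given. Over the 15 libraries without that centring, the genes most like H19 were Slc4a10 (r 0.988), Sh3pxd2a (0.986), Col3a1 (0.982), Tgfbr2 (0.981) and Fstl1 (0.979). With group means removed they were Ptrf (0.963), Igf2 (0.954), Slc4a10 (0.950), Fhl2 (0.947) and Egfr (0.946).

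The summed level of a list of meninges and fibroblast markers moved with H19 and Igf2 from library to library. All 12 of 12 marker genes on the list were present, with none at 0 in any library, and their summed level ran from 1706 to 5773 CPM in sham (median 4328), from 4500 to 7735 in crush AAV-null (median 6177) and from 3930 to 10760 in crush AAV-CNTF (median 7416). In crush AAV-null against sham, 4 of the 12 were higher (Col1a1, Col1a2, Col3a1 and Lum) and 1 lower (Ptgds). Of all genes tested, 14.7% were higher and 12.9% lower there. The list did not move as one: the fibrillar collagen genes made up much of the sum in crushed nerves, with Col1a1 at mean levels of 616 CPM in sham, 2357 in crush AAV-null and 3034 in crush AAV-CNTF. Ptgds, a prostaglandin synthase, made up much of the sum in sham and went the other way, at 2274, 863 and 556 CPM. The sum thus rests on different genes in sham and in crushed nerves. An equal sum, also where it serves as a covariate below, need not mean an equal part of these cells. In crush AAV-CNTF against sham, 6 of the 12 were higher and 3 lower, where 17% of all genes tested were higher and 14.3% lower. The lower ones were Ptgds, Slc6a13 (log2 -1.04, edgeR adjusted p = 0.00341) and Slc6a20a (-1.33, adjusted p = 0.039). With group means removed, the correlation with this sum was 0.841 for H19, 0.863 for Igf2, 0.636 for Meg3, 0.611 for Grb10, 0.051 for Ndn and -0.344 for Mest. The sum of 8 pericyte and smooth muscle markers also went with them (0.744 for H19, 0.779 for Igf2, 0.662 for Meg3 and 0.628 for Grb10), as did that of 8 endothelial markers (0.549, 0.63, 0.513 and 0.481). That of the mature oligodendrocyte markers went against them (-0.712, -0.606, -0.671 and -0.696). So did those of astrocytes (-0.577, -0.437, -0.651 and -0.611) and Schwann cells (-0.788, -0.759, -0.475 and -0.757, from 2 of 6 listed genes). The sums of NG2 glia (-0.577, -0.585, -0.374 and -0.561) and of neurons and axons (-0.517, -0.58, -0.454 and -0.459) also went against them. Without the 2 libraries farthest from the median of each centred sum, the pericyte values were 0.527, 0.528, 0.539 and 0.255. The endothelial values were 0.11, 0.184, 0.214 and -0.093, those of NG2 glia -0.248, -0.185, -0.084 and -0.202, and those of neurons -0.122, -0.157, -0.053 and 0.078. The meninges and fibroblast values were then 0.783, 0.855, 0.55 and 0.512, and the oligodendrocyte values -0.635, -0.507, -0.573 and -0.586. With the meninges and fibroblast sum as a covariate, an alternative added after the data were seen, H19 (log2 2.68, edgeR adjusted p = 1.52e-05), Grb10 (1.65, adjusted p = 0.00183) and Meg3 (0.78, adjusted p = 0.0143) remained higher in crush AAV-null. In that fit Igf2 was at 0.27 (adjusted p = 0.463) and Peg3 passed as lower (-0.55, adjusted p = 0.0281). In crush AAV-CNTF against sham the same covariate gave H19 at 3.31 (adjusted p = 6.28e-07), Igf2 at 0.86 (adjusted p = 0.00785, from 1.46 without it) and Peg3 at -0.53 (adjusted p = 0.0299). Skeletal muscle, in which H19 is also known to be expressed, had 8 of its 12 listed markers among the genes of the table, with summed medians of 44.4, 16.2 and 14.1 CPM in the 3 groups, up to 3 of them at 0 in a library, and 0 of 8 passed in crush AAV-null against sham or in AAV-CNTF against AAV-null, while 2 of 8 were lower in crush AAV-CNTF against sham. The part of these cell types in the results was not tested beyond these values.

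**Figure D4:**
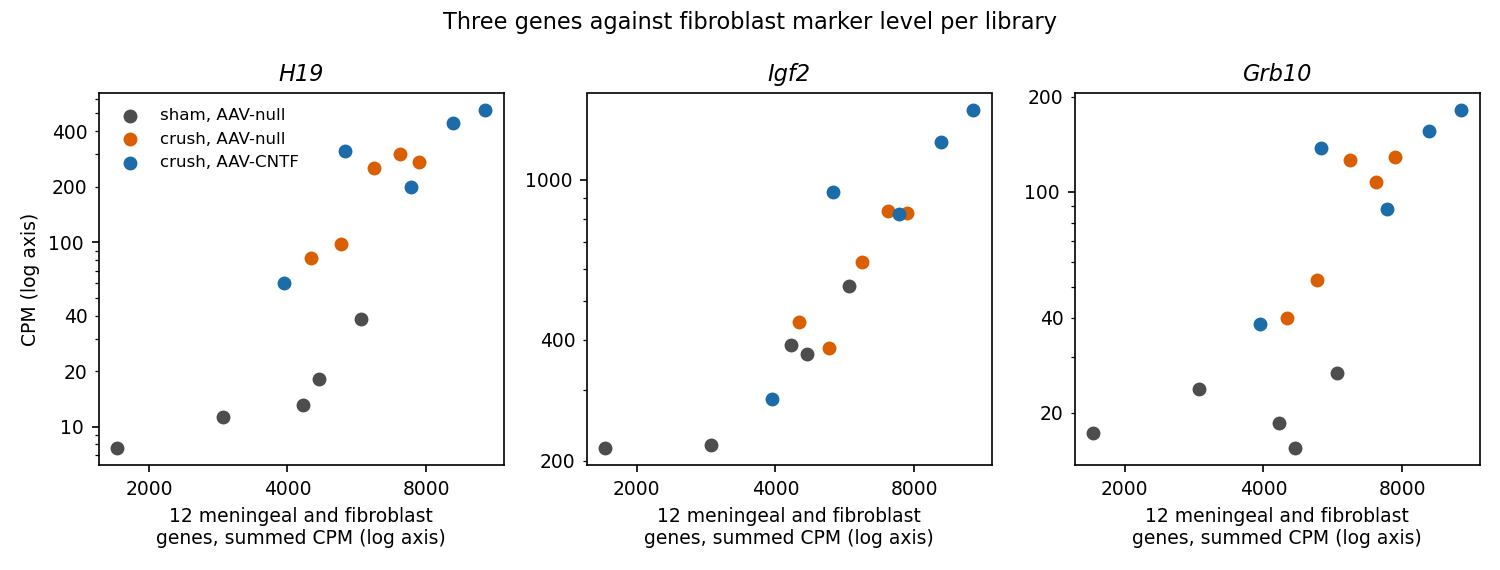
H19, Igf2 and Grb10 (CPM, log axis) against the summed level of the 12 meninges and fibroblast markers (CPM, log axis), each point 1 library coloured by group. Libraries with a higher marker sum have more Igf2 and H19, and the crush libraries lie above the sham libraries in H19 and Grb10 where the marker sums overlap. Ptgds made up much of the sum in sham and collagen genes in crushed nerves, so equal sums need not mean equal cell content.

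Other imprinted genes were read from a list of 49, of which 29 were tested. In crush AAV-null against sham, 3 were higher, 10 lower and 16 neither, with a median log2 fold change of -0.28 against 0.0048 over all genes. Leaving out crush AAV-null replicate 6 gave the same counts, and limma on log2(FPKM + 0.1), which moved the median of all genes by 0.178, gave 5 and 6. The 3 higher were Igf2r, which clears IGF2 from the cell surface (54.9 to 109 CPM, log2 0.98, edgeR adjusted p = 3.81e-06), Zim1 (1.83 to 9.85 CPM, log2 2.42, adjusted p = 0.000804) and Gnas, the stimulatory G protein alpha subunit (642 to 823 CPM, log2 0.36, adjusted p = 0.00163). Zim1 ran from 0.11 to 1 FPKM in sham (median 0.42) and was at 1.71 FPKM or more in crush AAV-null. It is among the measured genes only through crushed nerves, since each gene needed at least 1 FPKM in at least 4 libraries of some group. The 6 lower with the smallest p were Inpp5f (116 to 60.9 CPM, log2 -0.93), Nap1l5 (54.8 to 19.4, -1.50), Zrsr1 (-0.92), Snrpn, a splicing factor gene of the cluster that also holds Ndn (65.4 to 28.8, -1.19), Gatm (-0.76) and Peg13 (-0.82). Snurf shares transcripts with Snrpn, so the split of their reads is uncertain. By the allele usually expressed in mice, 3 of the 4 maternally expressed members and 2 of 12 maternally expressed other genes were higher, and 0 and 3 lower. Of the paternally expressed, 0 of 5 members and 0 of 15 other genes were higher, and 1 and 6 lower. Of all genes tested, 14.7% were higher and 12.9% lower, and nothing is read from the members' counts. Gnas and Inpp5f were left out of this grouping because their imprinting depends on the isoform. The usual allele of the genes kept, Grb10 and Igf2 among them, can also differ between tissues or transcripts. It was not measured in these nerves. The grouping was made after the values were seen and has no test. In AAV-CNTF against AAV-null 0 of 29 passed by edgeR (4 at an unadjusted p under 0.05), and against sham AAV-CNTF had 7 higher and 11 lower. Against sham, 17% of all genes tested were higher with AAV-CNTF and 14.3% lower.

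**Figure D5:**
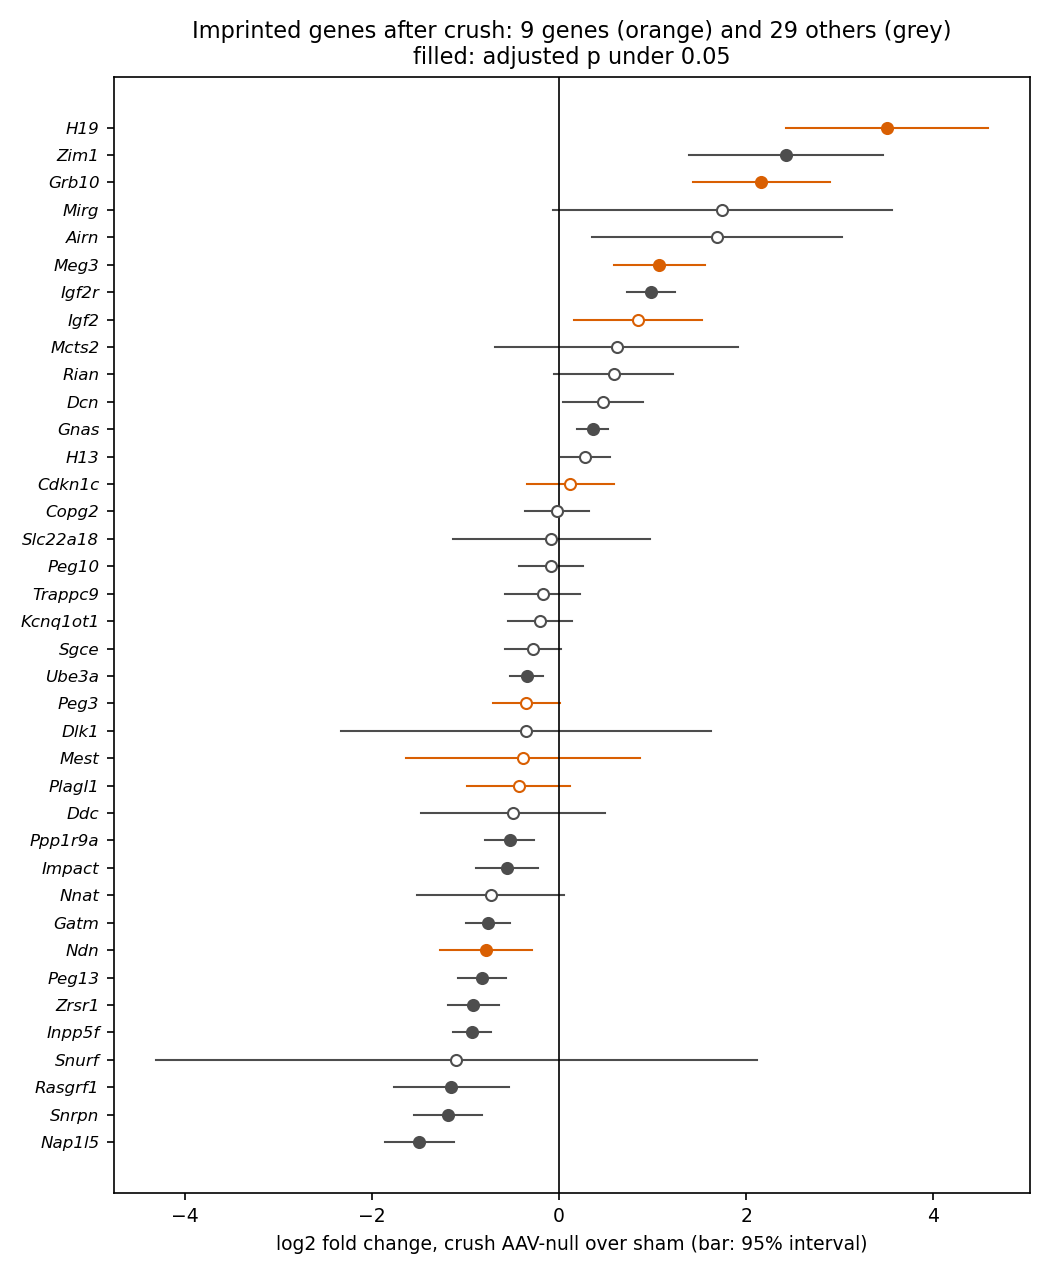
Log2 fold change of the 9 members (orange) and 29 other imprinted genes (grey) in crush AAV-null against sham, ordered by size, with 95% intervals; filled points passed edgeR's adjusted p under 0.05. H19 lies farthest to the right and Nap1l5 farthest to the left, and of the grey genes 10 passed as lower and 3 as higher.

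The tested neighbours of each member were read in crush AAV-null against sham. Near H19 and Igf2, Lsp1 was higher (log2 0.71, edgeR adjusted p = 0.00317), while Mrpl23 (0.80, adjusted p = 0.112) and Tnnt3 (-1.47, adjusted p = 0.252) did not pass. Near Meg3, the noncoding RNA Rian had a log2 change of 0.58 in crush AAV-null (adjusted p = 0.172) and rose in crush AAV-CNTF against sham (0.95, adjusted p = 0.0218). Mirg (1.75, adjusted p = 0.152) and Dlk1 (-0.36, adjusted p = 0.829) did not pass, nor did Wdr25 (-0.03), and Begain fell by 1.24 on the log2 scale (adjusted p = 0.00161). Around Grb10, Cobl was lower (-1.03, adjusted p = 1.27e-05), Ikzf1 higher (1.10, adjusted p = 7.57e-05) and Ddc neither. In the domain of Cdkn1c, Tssc4 was higher (0.82, adjusted p = 0.00273), and Kcnq1ot1, the noncoding RNA that silences that domain, did not pass (-0.21, adjusted p = 0.395), nor did Slc22a18 (-0.09), Cd81 (0.19) or Nap1l4 (0.08). Near Ndn, Snrpn and Ube3a (-0.35, adjusted p = 0.00415) were lower and Snurf had -1.10 (adjusted p = 0.656). Zim1, the tested neighbour of Peg3, is described above, and around Plagl1 none of Phactr2 (-0.15), Sf3b5 (-0.16) and Ltv1 (0.07) passed. Copg2, which overlaps Mest on the other strand, had a log2 change of -0.02 (adjusted p = 0.94), and Cep41 of 0.29 (adjusted p = 0.73).

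The insulin-like growth factor genes around Igf2 had 15 of 20 listed genes tested, of which 7 were higher and 3 lower in crush AAV-null (median log2 0.28). Over all tested genes, 14.7% were higher and 12.9% lower. With limma on log2(FPKM + 0.1), 7 were higher and 1 lower. Igf1, the other ligand, went from 8.38 to 167 CPM (log2 4.33 ± 0.31 SE, edgeR adjusted p = 2.21e-09). Igfbp7, a binding protein, rose by log2 1.58 (adjusted p = 9.62e-07). Igf1r, the receptor for both ligands, fell from 168 to 118 CPM (log2 -0.51, adjusted p = 0.000164), Grb14, an adaptor related to Grb10, fell from 64.1 to 30 CPM (-1.10, adjusted p = 3.12e-05), and Irs2 fell by 0.31 on the log2 scale (adjusted p = 0.0443). Grb10 and Grb14, adaptors of the same family, thus changed in opposite directions.

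Among 14 genes of cyclin-dependent kinase inhibitors and their partners in G1, the group of Cdkn1c, 5 were higher and 1 lower, and 3 and 0 with limma on log2(FPKM + 0.1). Cdkn1a (p21) rose from 38.9 to 111 CPM (log2 1.52, edgeR adjusted p = 1.33e-08), Cdk6 by 1.10 and Ccnd1 by 0.72 on the log2 scale, while Ccnd2 fell by 0.38. Of a list of genes that act on imprints or on DNA methylation, in either direction, 12 of 14 were tested and 3 were higher and 1 lower. Over all tested genes, 14.7% were higher and 12.9% lower in this comparison, and nothing is read from the counts of these lists. Uhrf1, which brings the maintenance methyltransferase to new DNA, rose from 2.47 to 17.2 CPM (log2 2.79, adjusted p = 5.1e-06), Dnmt1 by 0.51 and Dnmt3a by 0.26, and Tet3 fell by 0.25 on the log2 scale. Under the alternatives 2 to 3 genes of this list were higher and 0 to 3 lower. Tet3 lost its call without any one of sham replicates 3 and 6 and crush AAV-null replicates 2 and 3, and 2 genes rather than 3 were higher when a single one of these was left out: replicates 2, 4, 5 and 6 of sham, 2 and 5 of crush AAV-null and 3 of crush AAV-CNTF. Genes of dividing cells were 8 of 8 higher in the same comparison, with the limit given for them above. In AAV-CNTF against AAV-null, 0 genes passed by edgeR in the insulin-like growth factor list (2 at an unadjusted p under 0.05), the G1 list (0) or the imprint list (0).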

How the data were processed

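Total RNA of 15 optic nerves was sequenced. Per the submitters' processing notes, Trimmomatic 0.32, STAR 2.5.3a, RSEM 1.2.31, mm10, DESeq2 and R 3.2.3 were used. The labels name 2 library kits without saying which library each served; the annotation and strand setting were not stated either. The authors deposited expected counts and FPKM per gene and library, and their own log2 fold changes and p-values, per the file headers. Every gene of the table has at least 1 FPKM in at least 4 libraries of some group. Expected counts were rounded and fitted for all 3 groups with edgeR 4.0.16 (R 4.3.3, TMM, filterByExpr, quasi-likelihood, 12 residual degrees of freedom) and adjusted over 14194 genes at 0.05. CPM use TMM library sizes. Alternatives used DESeq2 1.42.0 and limma 3.58.1 (FPKM with a pseudocount of 0.1). Replicate numbers were not used as pairs in the main fit: 15 same-number pairs correlated between -0.053 and 0.113 in their deviations. The highest value was that of replicate 2 of the crush groups, so a shared origin of same-number libraries is not settled. A fit with the replicate number as a block is among the alternatives. Replicates differed beyond sampling noise, so none was counted as a duplicate. The series' design text calls the replicates biological. Named genes were members, at most 6 per direction of the other imprinted genes and 3 per direction of other lists by smallest p, every tested cluster neighbour and the 5 genes most like H19. Members and lists were chosen with earlier results of these data known.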

Additional observations from a re-analysis of the deposited data

Results flagged for a closer look

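In 30 groups of 5 libraries tested for a library far from the others, 3 passed Dixon's critical value of 0.71, and chance passes about 1 group in 20. Cdkn1c was at 29.3 CPM in sham replicate 4, against 16.5 to 18.6 CPM in the other sham libraries (gap to range 0.836). Mest was at 11.8 CPM in crush AAV-null replicate 6, against 3.91 to 5.81 CPM in the others (0.758), the library with the largest share of genes at 0. The ratio of H19 to Igf2 in FPKM was 0.282 in crush AAV-CNTF replicate 2, against 0.448 to 0.475 in the others (0.86), and this library also had the lowest H19 (59.9 CPM) of its group. The ratio was put to this check only in FPKM, which depend on the implied length. In CPM, H19 and Igf2 were 59.9 and 285 in replicate 2 and 200.1 and 821 in replicate 4 of that group.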

How the results depend on the processing

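Of the members' fold changes under other settings, 652 kept their direction and side of the threshold, 7 became significant, 4 lost significance and 39 changed sign. For AAV-CNTF against AAV-null, 8 genes passed; other counts were 78 (DESeq2), 5 (limma-voom), 3 (limma on FPKM), 1 (only the 10 libraries), 30 (skeletal muscle covariate) and 36 (meninges covariate), and 1 to 41 with each replicate left out, 41 without AAV-CNTF replicate 6 and 16 without AAV-CNTF replicate 3. The replicate block gave 16 and changed no member's call. Calls against sham ranged from 3483 to 3935 (AAV-null) and 3900 to 4512 (AAV-CNTF) with a replicate left out. Limma on FPKM called 2 members in crush AAV-null against sham and moved the split from 2087 higher and 1825 lower to 2341 and 826, and for AAV-CNTF against sham from 2406 and 2031 to 2565 and 966. Signs changed for AAV-CNTF against AAV-null in Mest (-0.003 by RLE, -0.012 by upper quartile, -0.002 by DESeq2, -0.05 with the replicate block, -0.02 with the meninges covariate), Plagl1 (-0.12) and Cdkn1c (-0.303) on FPKM, and Peg3 (-0.002 with the block). Against sham they changed in Mest for AAV-CNTF (0.508 by voom, 0.985 on FPKM, 0.035 with the muscle covariate) and AAV-null (0.339 by voom, 0.751 on FPKM), and in Cdkn1c with the meninges covariate (-0.01 and -0.076). With each replicate left out, signs also changed within -0.139 to 0.397 (Mest), -0.073 to 0.284 (Plagl1), -0.096 to 0.205 (Cdkn1c), -0.122 to 0.139 (Peg3) and -0.145 to 0.179 (Meg3) for AAV-CNTF against AAV-null, and -0.009 to 0.295 (Cdkn1c, AAV-null against sham). The cause was not tested. Mest held 2.8 expected counts in sham replicate 4 and 79.9 to 348 in the other libraries.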
